A study of Mus musculus with 6 samples.

Results

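The cluster of miR-221 and miR-222 is a pair of microRNA genes that lie side by side on chromosome X and give related mature microRNAs (miRNAs). Its members were taken as every probe name on the array whose stem is miR-221 or miR-222, on either arm. This gave 2 of 690 miRNA names, miR-221-3p (mmu-miR-221-3p in the files) and miR-222-3p (mmu-miR-222-3p), measured by 4 of 1928 probes with 10 spots each. Both names are 3p arms, so the levels below say nothing of the 5p arms.

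The levels come from total RNA of sorted mouse cells on 1-colour Agilent miRNA arrays, 1 array per preparation and all on 1 slide. The mice of both groups carried GFP driven by smooth muscle actin (SMA), whose product marks contractile cells. All sorted cells lacked CD45, which marks blood cells, and CD31, which marks endothelium. The wound group consists of cells with strong GFP, labelled myofibroblasts, taken from wounds 7 days after injury (3 preparations, numbered 3, 4 and 6 in the labels). The skin group consists of cells with weak GFP from unwounded dermis, labelled fibroblast-like (3 preparations, numbered 1, 2 and 5). Tissue and GFP level differ together between the groups. No strain, age or pooling of animals is stated, and nothing says that preparations came from separate animals, so every p-value is relative to how much these preparations vary, and that variation may be technical. In bulk RNA, fewer cells of a type and less RNA per cell cannot be told apart.

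A miRNA guides a silencing complex to messenger RNAs that pair with its seed, bases 2 to 8 of the mature strand, and miRNAs with 1 seed share most predicted targets. miR-221 and miR-222 are known for repressing p27 (Cdkn1b), an inhibitor of cyclin-dependent kinases that holds cells out of the cycle, and Kit, the receptor of stem cell factor. In vascular smooth muscle of rats they are known to favour proliferation over the contractile state, and in human endothelium to lower Kit.

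The sequences are shown because both members, and 1 further miRNA on the array, carry the same seed (capitals), while the rest of each strand differs. They are RefSeq sequences of the GRCm38.p6 build, written 5′ to 3′.
miR-221-3p: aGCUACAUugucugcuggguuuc
miR-222-3p: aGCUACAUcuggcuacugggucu
miR-1928: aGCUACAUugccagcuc
The members share their first 8 bases and, without gaps, 11 of 23 positions. miR-1928 shares its first 10 bases with miR-221-3p and its first 8 with miR-222-3p. The member genes are both on the minus strand of chromosome X and are neighbours in gene order, between the pseudogene Gm5383 and the long noncoding RNA gene Gm14636. In the precursors, shown to place the measured strand (capitals), the mature 3p arm lies in the second arm of each hairpin.
Mir221 hairpin: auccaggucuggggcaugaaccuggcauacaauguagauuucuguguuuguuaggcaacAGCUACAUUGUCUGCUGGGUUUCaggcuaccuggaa
Mir222 hairpin: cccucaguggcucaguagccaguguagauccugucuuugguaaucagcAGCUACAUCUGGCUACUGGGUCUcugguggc

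miR-221-3p was present in both cell populations at a low but measurable level, and miR-222-3p was fainter and well above background on no array. The scanner marks a spot as well above background when its signal clearly exceeds the noise. For miR-221-3p 55 of 60 wound spots and 56 of 60 skin spots carried that mark. For miR-222-3p 0 of 60 wound spots and 3 of 60 skin spots carried it. A miRNA counted as well above background on an array when over 50% of the spots of at least 1 of its probes had the mark. By this rule miR-221-3p passed on all 6 arrays and miR-222-3p on none.

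The background-subtracted signal of miR-221-3p, averaged over both probes, was 54.8, 87.8 and 88.4 intensity units on wound arrays 3, 4 and 6. On skin arrays 1, 2 and 5 it was 65.2, 68.2 and 86.9 units. The groups overlap before any scaling, with wound array 3 the lowest of the 6. The standard error over the spots of 1 array was 1.80 to 3.40 units on the wound arrays and 1.95 to 3.22 units on the skin arrays. Group means were 76.997 ± 19.2 units in wound and 73.4 ± 11.8 units in skin cells (SD, n = 3 each), and the difference was smaller than either SD (p = 0.8 by exact two-sided permutation of the arrays, a test that cannot go below 0.1 with 3 against 3).

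The signal of miR-222-3p was 9.45, 17.7 and 12.2 units on wound arrays 3, 4 and 6, against 20.6, 19.5 and 18.3 units on skin arrays 1, 2 and 5. Before scaling the wound values all lay under the skin values, with means of 13.1 ± 4.22 and 19.5 ± 1.11 units (SD, n = 3 each). The share of all miRNAs with such a separation before scaling was not counted. The difference of -6.34 units had the smallest p the design allows (exact two-sided permutation test, p = 0.1). The standard errors over spots, 0.714 to 1.32 units in wound and 1.45 to 2.10 units in skin, each exceed the gap between the nearest arrays of the groups, wound 4 and skin 5.

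Although dim, the miR-222-3p spots lay above the array's negative control spots. Those controls averaged between -2.49 and -1.39 units on the wound arrays and between -4.08 and -2.07 units on the skin arrays, with SDs of 5.26 to 7.55 units over the 6 arrays. Of the unflagged miR-222-3p spots, 48 of 57 in wound and 50 of 56 in skin exceeded the 95th percentile of their array's negative controls. For miR-1928, which carries the same seed, 0 of 56 wound spots and 3 of 59 skin spots did so, and its mean signal was below 0 on every array. For miR-221-3p all 55 unflagged wound spots and all 56 unflagged skin spots were above that percentile.

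**Figure D1:**
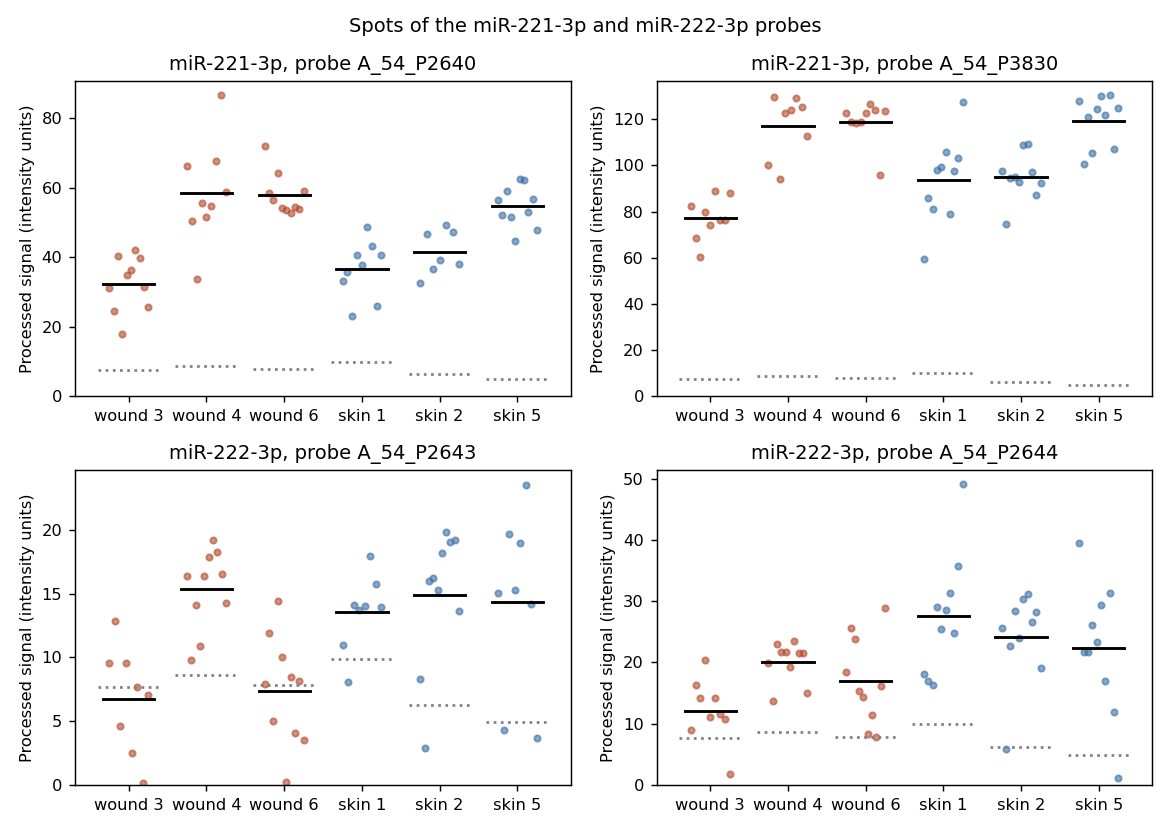
Background-subtracted signal in intensity units of each unflagged spot (points), by array, for both probes of miR-221-3p (top) and both of miR-222-3p (bottom). Black bars are means over spots and dotted lines the 95th percentile of the array's negative control spots. The miR-221-3p means overlap between wound (red) and skin (blue), and those of miR-222-3p stay under 30 units on each array.

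The scanner software also gives 1 detection call and 1 total signal per miRNA, a separate summary of the same spots. It called miR-222-3p detected on all 3 skin arrays, with total signals of 16.2, 13.9 and 12.8 units, and on none of the wound arrays, where the total is set to 0.1. Of all 690 names on the array 15 had this pattern (2.17%) and 31 the reverse one (4.49%), while 371 (53.8%) were detected on no array. miR-221-3p was called detected on all 6 arrays, with totals of 62.8, 102.6 and 102 units on wound arrays 3, 4 and 6 and 76.7, 78.3 and 99.7 units on skin arrays 1, 2 and 5. The wound arrays were dimmer in their bright probes: the 75th percentile over probes well above background on all arrays was 786, 1095 and 1136 units in wound and 1487, 1244 and 1772 units in skin. The median of the same probes overlapped, at 205.5, 327 and 290 units in wound and 284, 269 and 366 units in skin. The part of this difference in brightness in the detection calls of miR-222-3p was not tested.

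To compare preparations, each array was divided by that 75th percentile, and log2 was taken above a floor of -5.30. On this scale miR-221-3p stood at -3.84, -3.64 and -3.68 on wound arrays 3, 4 and 6. On skin arrays 1, 2 and 5 it stood at -4.51, -4.19 and -4.35. All 3 wound values lay above all 3 skin values, as for 48.6% of all tested miRNAs. Groups that do not overlap, in either direction, were found for 69.8%.

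The means were -3.72 ± 0.11 in wound and -4.35 ± 0.16 in skin (SD, n = 3 each), so that miR-221-3p was 1.54-fold higher in wound cells (log2 difference 0.63, SE 0.10, adjusted p = 0.00449 in limma with Benjamini-Hochberg adjustment over all tested miRNAs). In this fit 44.1% of tested miRNAs were called higher and 20.7% lower in the wound cells, 64.9% in all, and the median difference of all tested miRNAs was 0.38. The rise of miR-221-3p exceeded that median by 0.25, and 85 other miRNAs had a larger positive difference.

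The call did not carry over to other ways of scaling the arrays. The log2 difference was -0.057 with the 75th percentile of all probes (adjusted p = 0.837), 0.22 with the median of probes well above background (adjusted p = 0.0525), -0.23 with quantile normalization (adjusted p = 0.217) and 0.046 with no scaling (adjusted p = 0.904), all in limma. Set against the median miRNA of the same scaling, it stood at 0.13, 0.22, -0.23 and 0.13, in the same order. A difference in the level of miR-221-3p between the groups thus depends on the choice of scaling, in size and in sign.

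**Figure D2:**
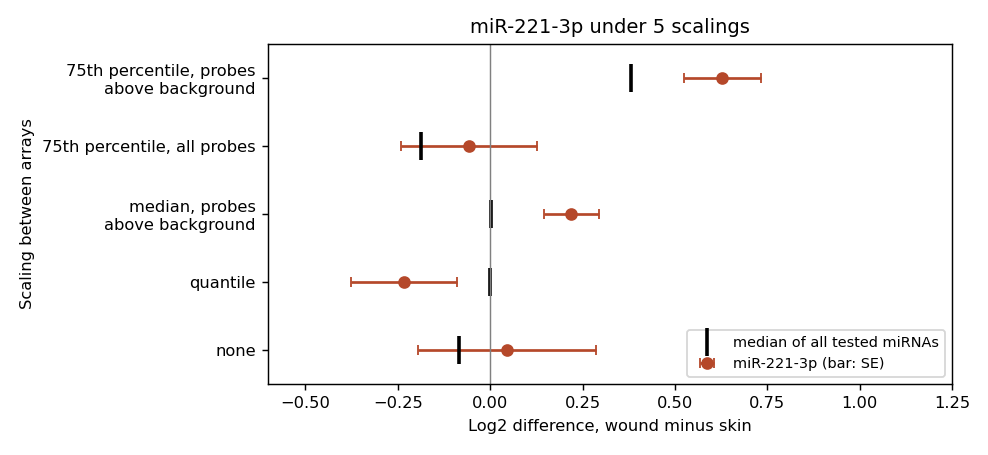
Log2 difference of miR-221-3p, wound minus skin (red points, bars SE, 3 arrays a group), under each of 5 scalings between arrays, with the median difference of all tested miRNAs as black ticks. The difference runs between -0.23 and 0.63, and the median of all miRNAs between -0.19 and 0.38.

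The 2 probes of miR-221-3p gave similar differences. The brighter, A_54_P3830, averaged -3.28 in wound and -3.86 in skin (log2 difference 0.59, SE 0.10, adjusted p = 0.00270 in limma over 402 tested probes). The dimmer, A_54_P2640, averaged -4.38 in wound and -5.08 in skin (log2 difference 0.70, SE 0.15, adjusted p = 0.00717). Of all tested probes 45.8% were called higher in the wound cells. A_54_P2640 fell short of the mark for well above background on wound array 3, where 5 of its 10 spots had it. Unscaled, the differences were 0.0065 for A_54_P3830 and 0.13 for A_54_P2640, neither of which passed.

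miR-222-3p was not tested for its own level, because it was well above background on no array, and no fold is given for it. Scaled but without the floor, its log2 signal was -6.38, -5.95 and -6.54 on wound arrays 3, 4 and 6, against -6.18, -5.99 and -6.59 on skin arrays 1, 2 and 5. These values overlap fully, unlike the unscaled ones, and all lie under the floor of -5.30.

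Division of an array by 1 factor leaves the difference between both members within that array unchanged. Quantile normalization, which is no such division, was not run for it. The log2 signal of miR-222-3p minus that of miR-221-3p was -2.54, -2.31 and -2.86 on wound arrays 3, 4 and 6. On skin arrays 1, 2 and 5 it was -1.67, -1.80 and -2.25. The wound values all lay below the skin values, although wound array 4 and skin array 5 were close together.

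The means were -2.57 ± 0.28 in wound and -1.90 ± 0.30 in skin (SD, n = 3 each), a difference of -0.66 on the log2 scale. It had the smallest p that the design allows (exact two-sided permutation test, p = 0.1), which is not under 0.05. With the median over spots in place of the mean it was -0.37 and the groups overlapped (exact permutation p = 0.2), and with outlier-flagged spots kept it was -1.73. The direction was the same within both rows of the slide, with -0.80 in row 1 (1 wound array, 2 skin arrays) and -0.34 in row 2 (2 wound arrays, 1 skin array). It was also the same in each of the 4 pairings of 1 miR-222-3p probe with 1 miR-221-3p probe (-0.77 to -0.62), although the groups overlapped in both pairings with A_54_P2643, the dimmer miR-222-3p probe. With normexp background correction, run with an offset of 50 units, the sign turned (0.19, exact permutation p = 0.4). On wound array 6 normexp put miR-221-3p at -0.338, miR-222-3p at -0.362 and miR-1928, whose mean signal was below 0, at -0.368. Under normexp bright and dim signals were thus hardly told apart on that array, and the turned sign says little. As miR-222-3p was well above background on no array, the difference rests on signals of 9.45 to 20.6 units and is one of dim signals, not a fold change of the miRNA.

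**Figure D3:**
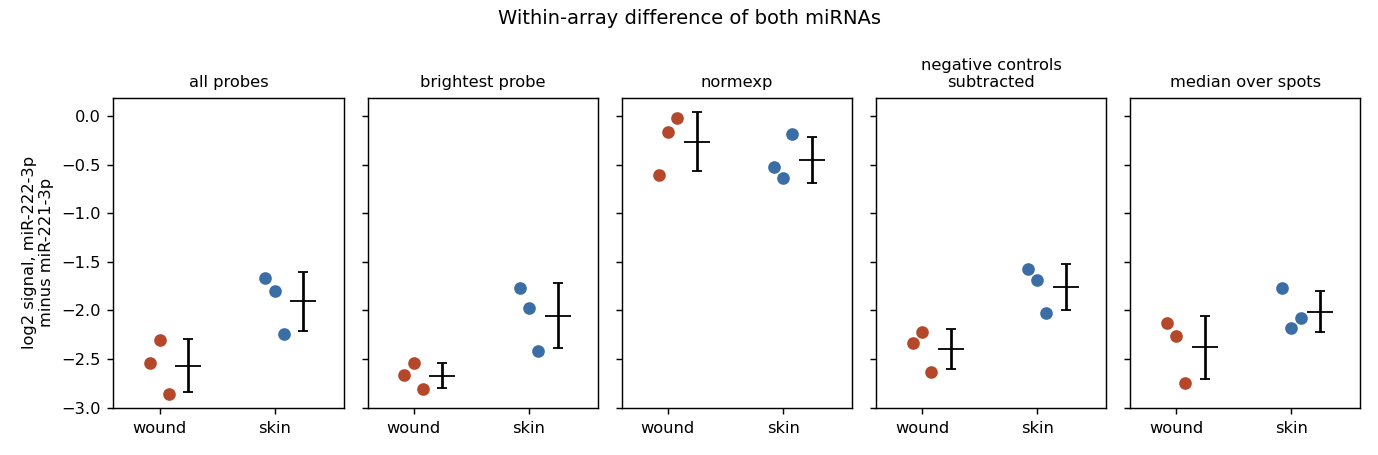
Log2 signal of miR-222-3p minus that of miR-221-3p within each array (points), for wound (red) and skin (blue), with mean and SD of the 3 arrays (black). The panels use all probes, the brightest probe of each miRNA, normexp background correction, signals less the mean of the array's negative controls, and the median over spots. The groups separate with all probes, the brightest probe and subtracted controls, and overlap with normexp and the median over spots.

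The miRNAs whose pattern over the 6 arrays was most like that of miR-221-3p were found by the Euclidean distance between log2 values after each miRNA's own mean was subtracted, among 155 others well above background on all arrays. The 5 closest were miR-374c-5p (distance 0.23), miR-425-5p (0.26), miR-345-5p (0.27), let-7e-5p (0.30) and miR-20b-5p (0.31). Their differences between wound and skin were 0.59, 0.68, 0.68, 0.41 and 0.52, all called in the main scaling. As for miR-221-3p, the sign turned under at least 1 other scaling for each but miR-425-5p, whose lowest difference among the 5 scalings was 0.072. The values of miR-425-5p on skin arrays 1 and 5 and of miR-374c-5p on skin array 1 lay at the floor. Distances and differences of these miRNAs thus depend in part on the floor. The 6 values share arrays and scaling factors, so likeness here is a description. miR-222-3p lay at the floor on every array and has no pattern to compare.

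**Figure D4:**
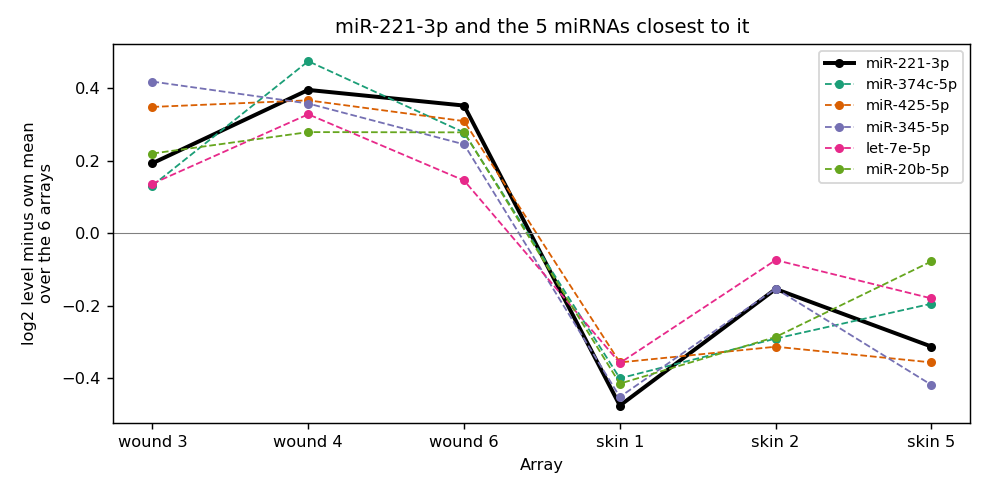
Log2 level of miR-221-3p (black) and of the 5 miRNAs closest to it (dashed), each minus its own mean over the 6 arrays, by array. The 3 wound arrays lie above 0 and the 3 skin arrays below 0 for all 6 miRNAs.

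Other miRNAs reported in human cells to act on CDKN1B, the gene of p27, were mostly lower in the wound cells under the main scaling. Of 4 on the array, all tested, 3 were lower in the wound cells and 0 higher (20.7% of all tested miRNAs were lower), with a median difference of -1.07 against 0.38 for all tested miRNAs. miR-181a-5p, which is also known from T-cell signalling, averaged -4.66 in wound and -2.33 in skin (log2 difference -2.34, SE 0.14). miR-24-3p, known from differentiating cells, averaged 0.70 in wound and 1.77 in skin (log2 difference -1.07, SE 0.10). miR-196a-5p, encoded in Hox clusters, averaged -3.07 in wound and -2.002 in skin (log2 difference -1.07, SE 0.23). These 3 were called lower under each of the 5 scalings. With normexp background correction none of the 3 passed in limma: miR-24-3p stood at -1.19 (adjusted p = 0.0821), and the sign turned for miR-181a-5p (0.23) and miR-196a-5p (0.24). The median difference of all tested miRNAs was then 1.33, and all 3 still lay below that median. miR-148a-3p, which did not pass, averaged -0.64 in wound and -0.91 in skin (log2 difference 0.27, adjusted p = 0.140 in limma).

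Of 6 miRNAs reported in human cells to act on KIT, 5 were tested, 3 were higher and 1 was lower (44.1% and 20.7% over all tested miRNAs), with a median of 0.52. The lower one, miR-218-5p, averaged -3.25 in wound and -1.11 in skin (log2 difference -2.13, SE 0.19) and was lower under each of the 5 scalings. The higher ones were the p53 target miR-34a-5p (0.53) and the related miR-193a-3p (0.55) and miR-193b-3p (0.38). Their calls held under only the main scaling of the 5, as for miR-221-3p, and without any 1 of 4 arrays for miR-193a-3p and of 5 arrays for miR-193b-3p the call was lost (limma adjusted p up to 0.0884 and 0.0821). miR-494-3p differed by 0.52 and did not pass.

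miR-221 and miR-222 belong with miRNAs linked to the proliferative state of smooth muscle. Of 4 others so linked, all tested, 3 were higher in wound cells and 1, miR-24-3p, was lower under each of the 5 scalings, with a median of 1.24 under the main one, where 44.1% of all tested miRNAs were higher and 20.7% lower. miR-21a-5p, an abundant fibroblast miRNA, differed by 2.24 (SE 0.10). miR-146a-5p, which dampens inflammatory signalling, lay 1.21 above the floor at which its skin values stood. It was nevertheless well above background on all 3 skin arrays, so this difference is a distance to the floor. miR-31-5p, induced in proliferating skin, was well above background on none of the skin arrays. It was at least 2.72-fold higher against the lowest signal well above background on each array, and 2.41-fold against the common floor (0.80 to 1.27 on the log2 scale over the 5 scalings). Of 6 names linked to the contractile state 5 were on the array and 2 were tested, both higher (44.1% over all tested miRNAs): miR-143-3p differed by 1.24 (SE 0.06) and miR-145a-5p by 0.65 (SE 0.09). miR-145a-5p kept its call under 2 of the 5 scalings. It lay at the floor on skin arrays 1 and 5, so its difference is in part a distance to the floor. With normexp, miR-21a-5p kept its call (limma adjusted p = 0.0386). miR-24-3p, miR-31-5p, miR-146a-5p, miR-143-3p and miR-145a-5p lost theirs (limma adjusted p 0.0821 to 0.142). miR-146a-5p also lost its call with the median over spots (0.52, limma adjusted p = 0.436).

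Among 82 other names on the array with genes on chromosome X alone, 17 were tested, 11 were higher and 2 lower, against 44.1% and 20.7% over all tested miRNAs. Across the 5 scalings 3 to 11 were higher and 2 to 6 lower. Their median difference was 0.52 (-0.0056 with quantile normalization), which is 0.14 above that of all tested miRNAs and less than the 0.63 of miR-221-3p. The 3 smallest p-values belonged to miR-503-5p, miR-450a-5p and miR-322-5p, neighbours in another X-linked cluster. miR-322-5p differed by 3.44. No skin array showed miR-503-5p or miR-450a-5p well above background. Under the main scaling they were at least 10.72-fold and 2.65-fold higher against the lowest signal well above background on each array. Against the common floor they were 9.49-fold and 2.34-fold higher. Over the 5 scalings their log2 differences ran from 2.78 to 3.25 and from 0.76 to 1.23. With normexp miR-450a-5p lost its call (limma adjusted p = 0.124), as did most called miRNAs.

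The labelled cell type was checked against known marker miRNAs. All 4 mesenchymal markers on the array (miR-199a-3p, miR-199a-5p, miR-199b-5p and miR-214-3p) were well above background on every array. Their summed scaled signal was lower in wound (15.28 to 16.91) than in skin (20.08 to 24.02). Under the main scaling 2 were called lower in wound, miR-199a-3p (-0.62) and miR-199b-5p (-0.75), and 2 were not called. Over all tested miRNAs 20.7% were called lower and 44.1% higher. The median difference of the 4 markers was -0.31, against 0.38 for all tested miRNAs. The lower calls were made under 5 of the 5 scalings for miR-199a-3p and under 4 for miR-199b-5p. Endothelial miR-126-3p, from a cell type that is known to express miR-221 and miR-222, was well above background on every array, and the summed scaled signal of the 2 endothelial markers was 0.0555 to 0.0773 in wound and 0.0363 to 0.0583 in skin. Of 7 keratinocyte markers 2 were detected, in skin cells only, with a sum of 0.00505 to 0.00920 in wound and 0.119 to 0.203 in skin. Of 6 blood markers 5 were well above background on no array and miR-451a on 2 skin arrays, with a sum of 0.0272 to 0.0356 in wound and 0.0160 to 0.0321 in skin. The melanocyte marker miR-211-5p and 4 striated muscle markers were well above background on no array. The part of these markers in the values of miR-221-3p and miR-222-3p was not tested.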

How the data were processed

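Per the file headers, Agilent Feature Extraction 10.7.3.1 produced the scanner output. What was deposited for each array is an intensity per spot, linear, with background subtracted and no normalization across arrays. A log2 table with 1 value per miRNA was deposited too; no source used here says how the authors made it. No spot was saturated (0 on each array).

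Signals were averaged over spots without outlier flags, scaled by the 75th percentile of those probes that passed as well above background on all 6 arrays, averaged over probes, raised to a floor of 0.0253 and taken to log2. A name was tested if 1 of its probes passed on all 3 wound or all 3 skin arrays (222 of 690) with limma 3.58.1 in R 4.3.3 (two-sided, Benjamini-Hochberg, threshold 0.05), which was tested on simulated data. "At least" folds set the brighter group against, per array, the higher of the dim signal and the lowest signal well above background. They hold for the main scaling and are no bound under other scalings. The number of arrays limits precision.

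The members and lists were chosen with earlier results of these data known; lists come from general knowledge. Named miRNAs are the members, the 5 closest patterns, all tested members of the short lists and the 3 smallest p of the X-linked list. Alternatives covered scaling, background correction, probe summary, floor, filter, limma options, slide row and left-out arrays. Figures were drawn with matplotlib 3.10.9.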

Additional observations from a re-analysis of the deposited data

Results flagged for a closer look

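On the array of wound preparation 4, 1 of the 10 spots of the miR-221-3p probe A_54_P2640 had a signal of 13203 units. It carried the scanner's outlier flag and was left out of the values above; it is singled out because a strong signal stands in data not used for the comparison. The other 9 spots of that probe on that array lay between 33.8 and 86.6 units, and the highest unflagged spot of the 4 probes on any array was 130 units. In all, 16 of 240 spots of these probes were flagged, and the next highest flagged spot was at 168 units. With every spot kept, the mean of the probe on that array was 1373 in place of 58.4 units. The log2 difference of miR-221-3p was then 1.67 (adjusted p = 0.192 in limma), and that of miR-222-3p minus miR-221-3p was -1.73. The cause of the bright spot was not tested.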

How the results depend on the processing

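For miR-221-3p the call was kept with total signals (limma adjusted p = 0.0472), the brightest probe, no filter and only miRNAs measured on all 6 arrays. Trend and robust limma, array weights and the slide row as a block kept it too. The call was also kept without any 1 array (0.55 to 0.71 on the log2 scale). All these runs scaled by a 75th percentile over probes or miRNAs well above background on all arrays. They therefore cannot test the choice of scaling. The difference kept its direction but lost its call with median scaling (0.22, with probe A_54_P2640 at 0.31 and probe A_54_P3830 at 0.18). The same held for no scaling (0.046, probes 0.13 and 0.0065), the median over spots (0.35) and all spots kept (1.67). It held for normexp too (1.40), where a shift nearly as large, 1.33, was the median across tested miRNAs. The direction under normexp is thus hardly specific to miR-221-3p. With a floor 4 times as high all its values lay at the floor, which leaves no direction (0). It turned with the 75th percentile of all probes (-0.057) and quantile normalization (-0.23). The probe differences ranged from 0.59 to 0.82 for A_54_P2640 and from 0.53 to 0.66 for A_54_P3830 without 1 array.

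The difference of miR-222-3p minus miR-221-3p ranged from -0.83 to -0.52 without 1 array. It turned with normexp (0.19), where both members were nearly equal on wound array 6. It was -0.64 after subtraction of negative controls and -0.37 with the median over spots, where the groups overlap (exact permutation p = 0.2); these, the probe pairings and the run with all spots were added after seeing the data. Total signals gave no value, since miR-222-3p is not detected in wound cells there.

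The calls (98 higher, 46 lower) became 52 higher and 76 lower with the 75th percentile of all probes, 54 higher with no scaling, 22 (17 higher, 5 lower) with normexp, 27 lower with the median over spots, 78 (44 higher) with the higher floor, and 59 higher when only miRNAs measured on all 6 arrays were tested. The authors' deposited table was run with columns by name, for miR-221-3p (-0.052) and the counts only. Its values show that this puts arrays of both groups into each group, so its 0 calls (0 higher, 0 lower, in limma, with 1 of 202 at an unadjusted p under 0.05; no other tool was run) and its sign say nothing of stability. The median of all tested miRNAs was 0.38, -0.19, 0.0011, 0 and -0.085 under the main scaling, the 75th percentile of all probes, the median, quantile normalization and no scaling, and 68.1%, 40.6%, 50.0%, 52.4% and 50.0% of calls were higher.

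Among other named miRNAs the sign turned as follows. With the 75th percentile of all probes: let-7e-5p -0.28, miR-148a-3p -0.42, miR-193a-3p -0.059, miR-193b-3p -0.30, miR-20b-5p -0.17, miR-345-5p -0.0035, miR-34a-5p -0.15, miR-374c-5p -0.060, miR-494-3p -0.17. With the median: let-7e-5p -0.00042, miR-148a-3p -0.14, miR-193b-3p -0.027. With quantile normalization: miR-148a-3p -0.14, miR-193a-3p -0.067, miR-193b-3p -0.15, miR-20b-5p -0.34, miR-345-5p -0.17, miR-34a-5p -0.0023, miR-374c-5p -0.012. With no scaling: let-7e-5p -0.17, miR-148a-3p -0.31, miR-193a-3p -0.040, miR-193b-3p -0.20, miR-20b-5p -0.063, miR-34a-5p -0.051, miR-494-3p -0.062. With normexp: miR-181a-5p 0.23, miR-196a-5p 0.24. With all spots kept: miR-494-3p -0.24. No paired analysis was possible because the replicate numbers of the groups do not overlap.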

Other observations

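In the authors' deposited table of log2 values, columns do not carry the preparation numbers of the titles: columns 1, 2 and 3 equal, up to a constant, the total signals of the arrays titled 3, 4 and 6, and columns 4, 5 and 6 those of the arrays titled 1, 2 and 5. In that table miR-221-3p stands at -2.47, -2.33 and -2.17 in the columns that equal the wound arrays, and at -2.58, -2.36 and -2.57 in those that equal the skin arrays. The groups overlap, since -2.47 in a wound column lies below -2.36 in a skin column. miR-222-3p stands at the lowest value of its column (-11.8, -12.3 and -12.2) in each column that equals a wound array, and at -4.82, -4.85 and -5.53 in the columns that equal a skin array. The scanner did not call miR-222-3p detected on those wound arrays, so no fold is given.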
